A study of Mus musculus with 6 samples.

Results

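The 41 genes described here encode proteins that drive mitosis and segregate chromosomes, among them mitotic cyclins and kinases, checkpoint and centromere proteins, kinesin motors, spindle and cytokinesis proteins and condensin subunits. They were taken by name from a fixed list, which was chosen with earlier results of these data known. Through all probe sets annotated to exactly 1 of them, they make up 41 of the 18193 genes and 98 of the 34945 singly annotated probe sets on the array. Expression was measured on Affymetrix arrays in stromal cells from the bone marrow of 10-week-old female mice. There were 3 arrays for cells labelled mesenchymal stem cell (MSC) and 3 for those labelled neural crest stem cell (NCSC). All mice had a mixed C57BL/6 and SV129 background and the genotype wnt1/CRE-R26R-lacZ, in which a Cre recombinase under Wnt1 control activates a lacZ reporter in neural crest descendants. Both cell types were expanded in Mesencult for 5 or more passages and then cloned, and no treatment was given. The design text calls the replicates biological, but no label ties them to separate animals, cultures or clones, so p-values here reflect only how far these samples spread, which can be technical, and whether each cell type was 1 clone is not stated. The question behind the comparison is how the 2 cell types resemble and differ from each other.

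A dividing cell switches on mitotic genes in late S and G2 phase, and it degrades many of their proteins at the end of mitosis. Cyclin B with the kinase CDK1 starts mitosis, Aurora and Polo-like kinases build the spindle, the spindle checkpoint holds the anaphase-promoting complex back until each chromosome is attached, and kinesins and cytokinesis proteins then separate the daughters. Transcription of these genes is repressed in resting cells by the DREAM complex and activated in cycling cells by MuvB with B-Myb and FOXM1, through a promoter element called CHR (cell cycle genes homology region), often beside CCAAT boxes that bind NF-Y. Cultured stromal and crest-derived cells proliferate, so messages of this kind are normally present in both.

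Values are log2 intensities of 1 probe set per gene, and differences are NCSC minus MSC. A gene was tested when its probe set was above 4 on the log2 scale on at least 3 of the 6 arrays, and it was called at an adjusted p under 0.05 in limma. Of all 10501 tested genes 64.1% were called, 35.0% higher and 29.1% lower in NCSC. The NCSC label matched its markers, since the 6 crest and glial markers with a probe set were all called higher in NCSC, with Sox10 at 12.84 against 4.30 in MSC. The mesenchymal markers did not set MSC apart in 1 direction: of 7 tested, 4 were called higher in NCSC (Pdgfrb, Cd44, Eng and Nt5e) and 3 lower (Vcam1, Pdgfra and Col1a1), while Thy1 was at the lowest value of 2.12 and Lepr at 2.32 on average in both. Of 9 macrophage and blood markers 4 exceeded the limit on any array. Ptprc, which marks all white blood cells, was at that lowest value everywhere, as were all 6 endothelial markers, while Cd68 and Lyz2 were called higher in NCSC. Cd14 went the other way, at 4.63, 3.96 and 5.15 in MSC and 2.19, 2.16 and 2.19 in NCSC, and was above the limit on too few arrays to be tested. The summed intensity of the 9 blood markers was 149 to 154 in MSC and 733, 883 and 840 on NCSC 1, NCSC 2 and NCSC 3, so NCSC 3 lay between its replicates, and the part of such cells in the differences between cell types was not tested. Arrays NCSC 3 and MSC 2 stood apart from their replicates over all tested genes. NCSC 3 differed by more than 2-fold from NCSC 1 and NCSC 2 in 4.98% and 4.63% of genes, and MSC 2 from MSC 1 and MSC 3 in 2.69% and 2.62%, whereas the other pairs of one cell type differed that far in 0.409% and 0.438%.

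Mitotic genes separated the NCSC arrays from each other in 1 direction. All 40 tested members had their highest NCSC value on NCSC 3, against 38.2% of all tested genes. The median departure of NCSC 3 from the mean of the other 2 NCSC arrays was 1.02 on the log2 scale, or 2.03-fold, and it ran from 0.24 for Bub3 to 1.51 for Kif4. A departure of at least 0.5 upward was seen for 39 of 40 members, against 9.33% of all tested genes, and one of at least 1 for 22 of 40, against 2.89%. No member departed downward by 0.5, while 8.74% of all tested genes did. The median departure of NCSC 3 over all tested genes was -0.016. NCSC 1 and NCSC 2 lay close together, with a median gap of 0.072 over the members and a largest gap of 0.33. One array against 2 has no replicate of its own, so these values describe NCSC 3 and carry no test. The member list was also chosen with earlier results of these data known. Each array holds RNA of a whole culture, in which a larger share of dividing cells cannot be told apart from more message per dividing cell.

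**Figure D1:**
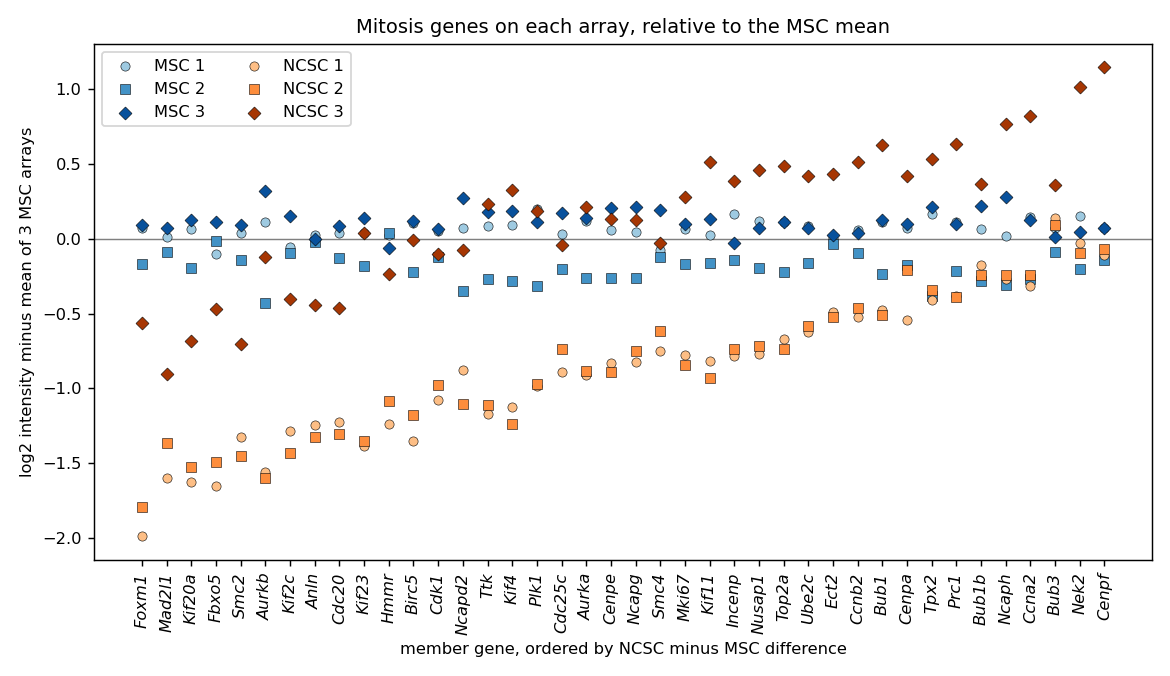
Log2 intensity of the 40 tested mitosis genes on each of the 6 arrays, minus the mean of the 3 MSC arrays of that gene (vertical axis), with genes ordered by their NCSC minus MSC difference. Circles, squares and diamonds are replicates 1, 2 and 3, blue for MSC and orange to brown for NCSC; NCSC 3 lies above NCSC 1 and NCSC 2 for all 40 genes.

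Compared with MSC, mitotic genes were lower in NCSC for some members and not called for most. Of 40 tested members 9 were called lower in NCSC (29.1% of all tested genes were), none was called higher (35.0%) and 31 were not called. The 9 called members were Foxm1, Mad2l1, Kif20a, Fbxo5, Smc2, Kif2c, Anln, Cdc20 and Hmmr. They were also the only 9 of the 40 whose NCSC values all lay under all MSC values, against 32.0% of all tested genes, and Bub3 was the only one with the opposite separation, against 39.2%. With no filter on low values, which adds genes to the fit and to the adjustment, 3 of the 9 were called (Mad2l1, Kif20a and Smc2). The share of members called was under that of all tested genes. Differences were negative for 35 of 40 members, with a median of -0.51, against a median of 0.056 over all tested genes.

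Leaving out NCSC 3 changed this count from 9 to 32 members called lower, with none higher and a median difference of -0.84. Over all tested genes the same fit called 31.6% lower and 36.8% higher. NCSC 1 and NCSC 2 both lay under all MSC arrays for 33 of 40 members, against 37.9% of all tested genes. NCSC 3 itself was under all MSC arrays for 9 members, within the MSC range for 10 and above all MSC arrays for 21 of 40. The shares over all tested genes were 38.5%, 14.2% and 47.3%, so the share above all MSC arrays was near that background. The 8 members not called without NCSC 3 were Cenpa, Tpx2, Bub1b, Ncaph, Ccna2, Bub3, Nek2 and Cenpf. With both NCSC 3 and MSC 2 left out, 37 of 40 members were called lower and 0 higher, against 35.3% of all tested genes called lower and 74.0% called in either direction. Since NCSC 3 was the highest NCSC array for all 40 members and MSC 2 the lowest MSC array for 38, leaving them out lowers the differences by construction. The same holds for the differences and adjusted p without NCSC 3 given for single genes below, which rest on NCSC 1 and NCSC 2 alone.

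**Figure D2:**
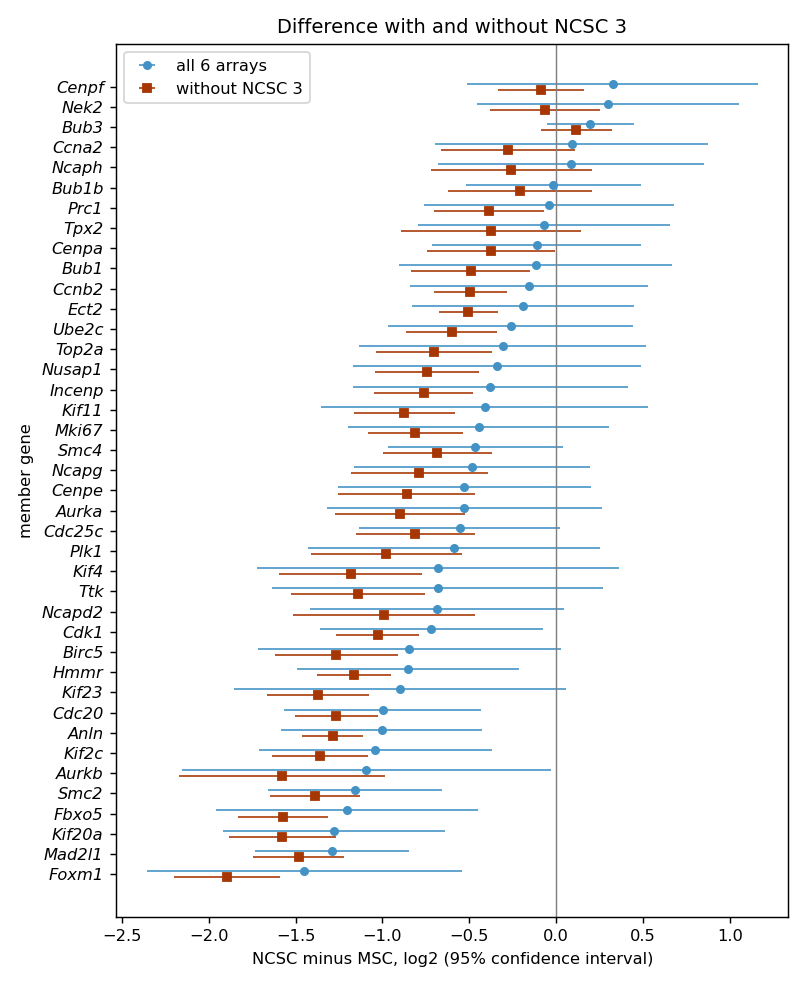
NCSC minus MSC difference of each tested mitosis gene on the log2 scale (horizontal axis) with its 95% confidence interval from limma, fitted on all 6 arrays (blue circles) and without NCSC 3 (brown squares). Without NCSC 3 the median difference moved from -0.51 to -0.84 and 32 genes in place of 9 were called lower.

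Promoters of the members held CHR and CCAAT letters more often than promoters in general. These elements are the ones named above for mitotic genes, so the shares are not independent of the choice of genes. RefSeq promoter windows (mouse build GRCm38.p6, 250 bases before to 50 after a transcription start) were at hand for 33 of the 41 members, as 36 windows. The CHR letters TTTGAA or TTCGAA, on either strand, occurred in 30 of these 36 windows (83.3%), against 19.2% of all 32851 windows and 13.6% of the 11006 windows of tested genes. CCAAT on either strand occurred in 29 windows (80.6%) against 37.4% of all windows, at least 2 CCAAT in 20 windows (55.6%) against 11.7%, and both kinds of element in 27 windows (75.0%) against 7.52%. Windows of 89 other mitosis genes held the CHR letters in 50% and those of 36 S-phase genes in 21.4%. These 2 sets held CCAAT in 57.8% and 54.8% and at least 2 CCAAT in 30.4% and 31.0%, also above the shares of all windows. A CHR and a CCAAT match can share only an end letter, and a match describes letters, not binding. The sequences below are the 150 bases up to the start, 5′ to 3′ on the gene's strand, with CHR and CCAAT matches in capitals; they were picked after their matches were seen, to show members with dense, single and no matches beside their values on NCSC 3.

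Top2a (chr11:99024190-99024339, minus strand): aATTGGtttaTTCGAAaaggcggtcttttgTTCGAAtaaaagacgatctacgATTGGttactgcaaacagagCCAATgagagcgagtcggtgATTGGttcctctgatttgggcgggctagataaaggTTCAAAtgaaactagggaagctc
Cdk1 (chr10:69352913-69353062, minus strand): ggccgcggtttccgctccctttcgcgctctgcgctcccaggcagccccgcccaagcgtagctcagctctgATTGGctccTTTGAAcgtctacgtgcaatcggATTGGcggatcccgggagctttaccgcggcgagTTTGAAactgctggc
Mki67 (chr7:135716380-135716529, minus strand): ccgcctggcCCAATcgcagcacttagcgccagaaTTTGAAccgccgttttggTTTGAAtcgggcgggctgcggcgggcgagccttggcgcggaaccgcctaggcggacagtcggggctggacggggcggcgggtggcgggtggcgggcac
Kif11 (chr19:37376232-37376381, plus strand): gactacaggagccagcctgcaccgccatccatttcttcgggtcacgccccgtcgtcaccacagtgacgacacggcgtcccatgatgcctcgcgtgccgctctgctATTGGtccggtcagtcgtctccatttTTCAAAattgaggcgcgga
Cdc20 (chr4:118437344-118437493, minus strand): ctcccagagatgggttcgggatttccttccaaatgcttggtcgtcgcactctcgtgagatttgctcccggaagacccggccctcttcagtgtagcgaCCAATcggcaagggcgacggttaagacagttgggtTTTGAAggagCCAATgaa
Bub3 (chr7:131560220-131560369, plus strand): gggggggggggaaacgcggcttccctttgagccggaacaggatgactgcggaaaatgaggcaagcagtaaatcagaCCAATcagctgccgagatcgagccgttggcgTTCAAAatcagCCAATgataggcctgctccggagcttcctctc
Nusap1 (chr2:119618148-119618297, plus strand): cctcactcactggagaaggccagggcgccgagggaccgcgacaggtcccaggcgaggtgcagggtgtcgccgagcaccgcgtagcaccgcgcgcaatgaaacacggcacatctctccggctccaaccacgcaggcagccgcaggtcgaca

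Top2a, the DNA topoisomerase that untangles sister chromatids, has 4 CHR and 6 CCAAT matches in its full window and departed upward by 1.19 on NCSC 3. Cdk1 has 2 and 3 matches and departed by 0.93, Mki67 has 2 and 3 and departed by 1.09, and Kif11 has 1 of each and departed by 1.39. Cdc20 has 1 CHR and 2 CCAAT matches with a departure of 0.80. Bub3, with the same number of matches in the window shown (its gene has 2 windows), had the smallest departure, 0.24. Nusap1 has neither element in its window and departed by 1.20. No window was used for Aurkb, Ccna2, Cdc25c, Foxm1, Incenp, Kif20a, Smc4 and Tpx2.

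The proliferation marker Mki67, a protein that coats mitotic chromosomes, had log2 values of 12.96, 12.73 and 12.99 on the 3 MSC arrays and 12.12, 12.05 and 13.17 on NCSC 1, NCSC 2 and NCSC 3. Top2a was at 12.98, 12.64 and 12.98 in MSC and 12.20, 12.13 and 13.35 in NCSC. On both genes NCSC 1 and NCSC 2 were the 2 lowest arrays and NCSC 3 the highest, so the groups overlapped. Neither was called, with differences of -0.45 ± 0.31 (SE) for Mki67 (95% confidence interval -1.20 to 0.30, adjusted p = 0.246) and -0.31 ± 0.34 for Top2a (interval -1.13 to 0.52, adjusted p = 0.455). Leaving out NCSC 3 lowers the NCSC mean of both genes by construction. They were then called lower in NCSC, with differences of -0.81 ± 0.11 (adjusted p = 0.00173) and -0.70 ± 0.13 (adjusted p = 0.00599). Foxm1, the forkhead factor that activates G2 and mitotic genes, showed the largest fall of the 40 members. It was at 8.77, 8.53 and 8.79 in MSC and 6.71, 6.90 and 8.13 in NCSC, so that the NCSC arrays all lay under the MSC arrays although NCSC 3 stood 1.33 above the other two. Foxm1 fell by 1.45 ± 0.37 on the log2 scale, or 2.73-fold (adjusted p = 0.0148). This call was lost without NCSC 2 and without the filter on low values, within a range of adjusted p of 8.26e-05 to 0.0737 over all settings.

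None of the 4 genes of the CDK1 group was called with all arrays, against 64.1% of all tested genes. Cdk1, the kinase that triggers mitosis, was at 13.28, 13.10 and 13.29 on the 3 MSC arrays and 12.15, 12.25 and 13.13 on NCSC 1, NCSC 2 and NCSC 3. NCSC 1 and NCSC 2 lay about 1 log2 unit under MSC, and NCSC 3 fell inside the MSC range. Its difference of -0.72 ± 0.26 (SE) just missed the threshold (adjusted p = 0.053) and was called without NCSC 3 (-1.03 ± 0.092, adjusted p = 0.000458). Ccnb2, the cyclin B2 partner of CDK1, was at 11.77, 11.62 and 11.75 in MSC and 11.19, 11.25 and 12.23 in NCSC. Ccna2, cyclin A2, which acts from S phase to early mitosis, was at 12.33, 11.91 and 12.31 in MSC and 11.87, 11.95 and 13.01 in NCSC. For both cyclins NCSC 3 was the highest of all 6 arrays. Their differences were -0.16 ± 0.28 (adjusted p = 0.647) and 0.090 ± 0.32 (adjusted p = 0.821), and without NCSC 3 -0.49 ± 0.081 (adjusted p = 0.00396) and -0.28 ± 0.15 (adjusted p = 0.157). Ccna2 thus changed sign without reaching a call, and its second kept probe set gave -0.32. The phosphatase Cdc25c, which removes the inhibitory phosphates from CDK1, averaged 9.33 ± 0.19 (SD, n = 3) for MSC against 8.77 ± 0.45 for NCSC, a difference of -0.56 ± 0.24 that was not called (adjusted p = 0.0821).

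Of the 7 mitotic kinases none was called with all arrays, against 64.1% of all tested genes. Without NCSC 3, 5 were called lower, against 31.6% of all tested genes. Aurkb, the kinase of the chromosomal passenger complex, was at 10.83, 10.29 and 11.04 on the 3 MSC arrays and 9.16, 9.12 and 10.60 on NCSC 1, NCSC 2 and NCSC 3. It combined a large departure of NCSC 3 (1.46) with a low value on MSC 2, and its difference of -1.09 ± 0.44 (SE) was not called (adjusted p = 0.0677). The dimmer kept probe set of Aurkb, tested singly in limma, gave -1.26 and was called lower (adjusted p = 0.0393). Aurka, the spindle pole kinase, was at 10.09, 9.70 and 10.11 in MSC and 9.05, 9.08 and 10.18 in NCSC. Plk1, the Polo-like kinase of mitotic entry and spindle assembly, was at 10.03, 9.52 and 9.94 in MSC and 8.85, 8.86 and 10.02 in NCSC. In both, NCSC 1 and NCSC 2 lay under every MSC array and NCSC 3 was close to the highest MSC array. Aurka and Plk1 differed by -0.53 ± 0.33 and -0.59 ± 0.35 (adjusted p = 0.197 and 0.179). Ttk, the checkpoint kinase MPS1, was at 10.54, 10.19 and 10.64 in MSC and 9.29, 9.35 and 10.69 in NCSC. NCSC 3 was its highest array and departed by 1.37.

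The checkpoint kinase Bub1 and its relative Bub1b (BubR1) had different values on NCSC 1 and NCSC 2 relative to MSC. Bub1 was at 11.61, 11.26 and 11.62 in MSC and 11.02, 10.98 and 12.12 in NCSC. Bub1b was at 9.75, 9.40 and 9.90 in MSC and 9.51, 9.44 and 10.05 in NCSC. The NCSC 1 and NCSC 2 values of Bub1b lay inside its MSC range, while those of Bub1 lay under it, and NCSC 3 was the highest array for both. Bub1 differed by -0.12 ± 0.32 (adjusted p = 0.766) and was called without NCSC 3 (-0.49 ± 0.13, adjusted p = 0.0229), whereas Bub1b differed by -0.017 ± 0.21 (adjusted p = 0.949) and -0.21 ± 0.16 without NCSC 3 (adjusted p = 0.297). Whether the 2 genes differ from each other was not tested. Nek2, a centrosome kinase, was at 10.82, 10.46 and 10.71 in MSC and 10.64, 10.57 and 11.68 in NCSC. Its NCSC 1 and NCSC 2 values lay within the MSC range and only NCSC 3 stood above it, so that Nek2 had the second largest positive difference of the members, 0.30 ± 0.31, without a call (adjusted p = 0.43).

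In the group of 5 checkpoint and anaphase-promoting complex genes, 3 were called lower in NCSC, against 29.1% of all tested genes. Mad2l1 encodes MAD2, the checkpoint protein that binds CDC20. Its log2 values were 12.67, 12.57 and 12.73 on the 3 MSC arrays and 11.06, 11.29 and 11.75 on NCSC 1, NCSC 2 and NCSC 3. The groups did not overlap, and NCSC 3 stayed under all MSC arrays. Mad2l1 fell by 1.29 ± 0.18, or 2.44-fold (adjusted p = 0.00123), the lowest adjusted p of the 40 members, and was called under every setting run. Cdc20, the activator of the anaphase-promoting complex, was at 12.86, 12.69 and 12.91 in MSC and 11.60, 11.52 and 12.36 in NCSC. Fbxo5 (EMI1), an inhibitor of the same complex, was at 11.92, 12.01 and 12.14 in MSC and 10.37, 10.53 and 11.55 in NCSC. Both fell, Cdc20 by 1.00 ± 0.23 (adjusted p = 0.0101) and Fbxo5 by 1.20 ± 0.31 (adjusted p = 0.0149). Fbxo5 lost its call without MSC 3, without NCSC 2 and with no filter, within a range of adjusted p of 0.000144 to 0.0727.

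Ube2c, the ubiquitin-conjugating enzyme of the anaphase-promoting complex, averaged 12.98 ± 0.14 (SD, n = 3) for MSC against 12.71 ± 0.59 for NCSC and was not called (-0.26 ± 0.29, adjusted p = 0.457). Bub3, a checkpoint scaffold that is also made outside mitosis, was at 12.76, 12.60 and 12.70 in MSC and 12.82, 12.78 and 13.05 in NCSC. All NCSC values lay just above the MSC values, NCSC 3 departed by only 0.24, and the difference of 0.20 ± 0.10 was not called (adjusted p = 0.138). Of its other kept probe sets, tested singly, 1 was called higher by 0.47 (adjusted p = 0.030) and 2 dimmer ones gave -0.15 and -0.20 without a call.

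Of the 5 centromere and chromosomal passenger genes none was called with all arrays, against 64.1% of all tested genes. Birc5 (survivin) was at 13.21, 12.88 and 13.22 on the 3 MSC arrays and 11.75, 11.92 and 13.10 on NCSC 1, NCSC 2 and NCSC 3. NCSC 1 and NCSC 2 lay more than 1 log2 unit under the MSC arrays 1 and 3, and NCSC 3 reached the MSC range with a departure of 1.26. Its difference was -0.84 ± 0.36 (adjusted p = 0.0809), and -1.26 ± 0.14 without NCSC 3 (adjusted p = 0.000873). Incenp, the scaffold that holds Aurora B, averaged 12.81 ± 0.16 (SD, n = 3) for MSC against 12.43 ± 0.67 for NCSC, a difference of -0.38 ± 0.33 (adjusted p = 0.343). Cenpe, a kinetochore motor, averaged 10.66 ± 0.24 for MSC against 10.13 ± 0.58 for NCSC, a difference of -0.53 ± 0.30 (adjusted p = 0.165). Cenpa, the histone variant that marks centromeres, was at 11.87, 11.62 and 11.90 in MSC and 11.25, 11.59 and 12.22 in NCSC, and Cenpf, a kinetochore protein of G2, was at 10.97, 10.76 and 10.97 in MSC and 10.79, 10.83 and 12.05 in NCSC. Both were highest on NCSC 3. Cenpf, with 0.32 ± 0.34, had the largest positive difference of the members and was not called (adjusted p = 0.437). Without NCSC 3 its difference was -0.087 ± 0.10. The difference of Cenpa was -0.11 ± 0.25 (adjusted p = 0.713).

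Of the 5 tested kinesin motors 2 were called lower, against 29.1% of all tested genes. The 3 others were among the 5 largest departures of NCSC 3. Kif20a, a motor of the central spindle, was at 12.57, 12.31 and 12.63 on the 3 MSC arrays and 10.88, 10.98 and 11.82 on NCSC 1, NCSC 2 and NCSC 3. Kif2c (MCAK), which corrects faulty attachments, averaged 11.45 ± 0.13 (SD, n = 3) for MSC against 10.41 ± 0.56 for NCSC. For both, NCSC 3 stayed under all MSC arrays. Kif20a fell by 1.28 ± 0.26 (adjusted p = 0.00588) and was called in every setting, and Kif2c by 1.04 ± 0.28 (adjusted p = 0.0164), a call lost without MSC 3, NCSC 1 or NCSC 2 or with no filter (adjusted p of 0.000166 to 0.0765 over all settings). Kif4, a chromosome-arm motor, was at 10.33, 9.95 and 10.42 in MSC and 9.11, 8.99 and 10.56 in NCSC. Kif23 (MKLP1), which works in cytokinesis, was at 11.13, 10.90 and 11.23 in MSC and 9.70, 9.73 and 11.13 in NCSC. Kif11 (Eg5), which pushes the spindle poles apart, was at 11.56, 11.36 and 11.66 in MSC and 10.71, 10.59 and 12.04 in NCSC. These 3 motors had departures of NCSC 3 of 1.51, 1.41 and 1.39, so that NCSC 3 reached or passed MSC values and none was called (adjusted p = 0.208, 0.0873 and 0.383). Without NCSC 3 all 5 tested motors were called lower, against 31.6% of all tested genes, with a median difference of -1.36. Leaving out the highest NCSC array lowers these differences by construction. Kif15 was not tested, because its single probe set lay between 2.14 and 2.16 on every array.

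Spindle and cytokinesis proteins gave 2 calls among 6 genes, both lower in NCSC, where 29.1% of all tested genes were called lower. Anln (anillin), a scaffold of the contractile ring, averaged 13.73 ± 0.023 (SD, n = 3) for MSC against 12.73 ± 0.49 for NCSC and fell by 1.00 ± 0.24 (adjusted p = 0.0108). Hmmr, a spindle-binding hyaluronan receptor, averaged 10.86 ± 0.055 for MSC against 10.00 ± 0.54 for NCSC and fell by 0.85 ± 0.26 (adjusted p = 0.029). The call of Hmmr was lost without any one array other than NCSC 3, and with no filter (adjusted p of 0.000219 to 0.113 over all settings). The other 4 were not called: the spindle factor Tpx2 (-0.071 ± 0.30), the microtubule bundler Prc1 (-0.044 ± 0.30), the RhoA activator Ect2 (-0.19 ± 0.26) and the spindle protein Nusap1 (-0.34 ± 0.34), at adjusted p from 0.409 to 0.907. Their departures on NCSC 3 lay between 0.91 and 1.20.

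Condensin subunits, which compact mitotic chromosomes, gave 1 call among 5 genes, lower in NCSC, where 29.1% of all tested genes were called lower. Smc2, a core ATPase of condensin, was at 12.92, 12.74 and 12.97 on the 3 MSC arrays and 11.55, 11.43 and 12.17 on NCSC 1, NCSC 2 and NCSC 3. NCSC 3 was the highest NCSC array but still under all MSC arrays. Smc2 fell by 1.16 ± 0.21 (adjusted p = 0.00325) and was called in every setting. Its partner ATPase Smc4 differed by -0.47 ± 0.21 (adjusted p = 0.0916), and the condensin I subunits Ncapd2 and Ncapg by -0.69 ± 0.30 and -0.48 ± 0.28 (adjusted p = 0.0889 and 0.173). Ncaph, the kleisin subunit of condensin I, was at 10.70, 10.38 and 10.97 in MSC and 10.41, 10.44 and 11.45 in NCSC. Its NCSC 1 and NCSC 2 values sat at the low end of the MSC range and NCSC 3 above it, so the difference of 0.084 ± 0.32 (adjusted p = 0.83) became -0.26 ± 0.18 without NCSC 3 (adjusted p = 0.254).

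The other arrays departed less. MSC 2 was the lowest MSC array for 38 of 40 members, against 46.7% of all tested genes, with Fbxo5 and Hmmr as the exceptions. Its median departure was -0.28, against -0.030 over all tested genes, and it reached -0.5 for 3 of 40 members (Aurkb, Ncapd2 and Tpx2), against 6.48%. Median departures were 0.10 on MSC 1, 0.17 on MSC 3, -0.54 on NCSC 1 and -0.50 on NCSC 2. The 3 departures of a cell type add up to 0 for each gene, so the values of NCSC 1 and NCSC 2 are not independent of that of NCSC 3. The median level of the 40 members was 11.50, 11.31 and 11.61 on the MSC arrays and 10.75, 10.69 and 11.79 on the NCSC arrays. NCSC 3 thus had the highest and NCSC 2 the lowest median of the 6 arrays. Over all tested genes the array medians lay between 9.74 and 9.82.

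**Figure D3:**
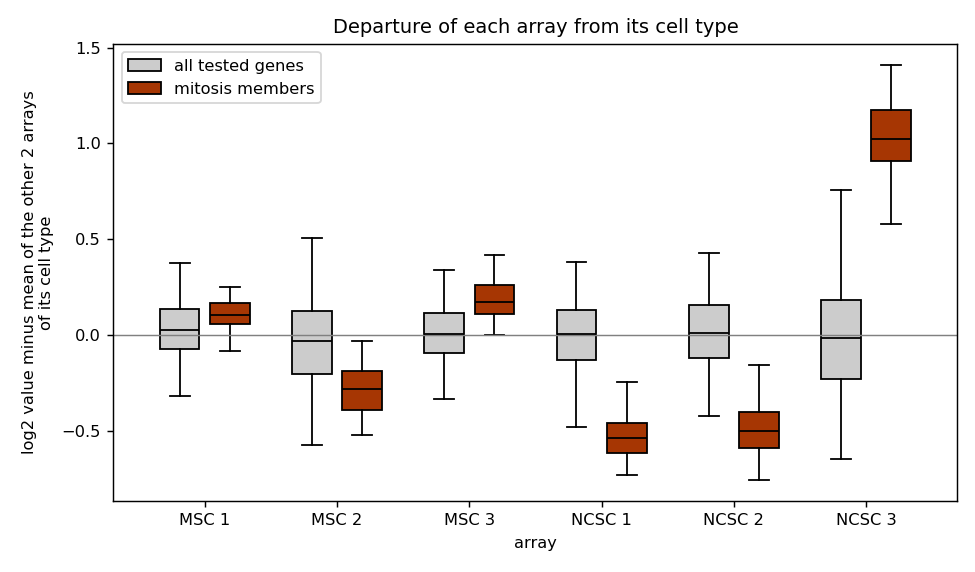
Departure of each array from the mean of the other 2 arrays of its cell type, in log2 units (vertical axis), for all 10501 tested genes (grey) and the 40 tested mitosis genes (brown). Boxes span the quartiles with the median as a line, and whiskers leave out the outer 5% of genes on each side; the members' median is 1.02 on NCSC 3 and -0.28 on MSC 2.

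Other mitosis genes, from lists beside the members, were also mostly higher on NCSC 3. Of 100 tested genes on 4 further lists of mitosis genes, 26 were called lower and 10 higher in NCSC, with a median difference of -0.40. Of all tested genes 29.1% were lower and 35.0% higher, so the share called lower was near that background. Without NCSC 3 there were 69 lower and 10 higher, against 31.6% and 36.8% of all tested genes. The median departure of the 100 genes on NCSC 3 was 0.90. Of them 93 had their highest NCSC value there, against 38.2% of all tested genes. Of 34 kinetochore and checkpoint genes 11 were called lower and none higher, among them Cenpt (-1.36 ± 0.13, adjusted p = 0.000212), Cenph (-2.49 ± 0.28, adjusted p = 0.000441) and Cenpu (-2.67 ± 0.40, adjusted p = 0.00155), subunits of the constitutive centromere network. Of 20 further kinases, cyclins and phosphatases 3 were lower and 3 higher. The CDK1-binding Cks2 (-1.30 ± 0.24), Cdca3 (-1.29 ± 0.27) and the kinase Melk (-1.53 ± 0.38) were lower, and Nek6 (1.18 ± 0.14), Nek7 (0.40 ± 0.078) and Wee1 (0.66 ± 0.15), the kinase that inhibits CDK1, were higher. Of 30 spindle and cytokinesis genes 11 were lower and 4 higher. Ckap2 (-1.83 ± 0.22), Haus8 (-0.81 ± 0.11) and Kif2a (-0.75 ± 0.10) were lower, while Numa1 (0.58 ± 0.084), the microtubule end-binding protein Mapre1 (0.37 ± 0.078) and Sapcd2 (1.94 ± 0.47) were higher.

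Cohesin and anaphase-promoting complex genes had smaller median departures on NCSC 3. Of 16 cohesin, condensin and separation genes 1 was called lower, Ncaph2 (-0.42 ± 0.15), and 3 higher, the cohesin factors Pds5b (0.76 ± 0.091), Stag1 (0.74 ± 0.13) and Stag2 (0.42 ± 0.086), and the median departure was 0.38. The 14 anaphase-promoting complex genes had a median departure of 0.11, with 4 lower, among them Cdc16 (-1.32 ± 0.082), Anapc10 (-1.08 ± 0.11) and Cdc26 (-0.47 ± 0.13), and 3 higher, Anapc1 (1.70 ± 0.078), Anapc4 (0.49 ± 0.083) and Anapc7 (0.43 ± 0.10). Beside these counts, 29.1% of all tested genes were called lower and 35.0% higher. Of the 16 genes 6 departed upward on NCSC 3 by at least 0.5 and 4 by at least 1, and of the 14 genes 1 and 0. The shares over all tested genes were 9.33% and 2.89%. The gene lists were not tested against each other.

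S-phase genes were also highest on NCSC 3 among the NCSC arrays. Of 43 tested, 15 were called lower and none higher, with a median difference of -0.46. Of all tested genes 29.1% were lower and 35.0% higher, so the share called lower was not far from that background. Without NCSC 3 there were 36 lower, against 31.6% of all tested genes. All 43 had their highest NCSC value on NCSC 3, against 38.2% of all tested genes, with a median departure of 0.91. The lowest adjusted p belonged to the replication factor Gins4 (-1.53 ± 0.10, adjusted p = 5.63e-05) and the origin proteins Orc6 (-1.91 ± 0.19, adjusted p = 0.00025) and Orc1, which was at least 10.3-fold lower with an NCSC mean of 3.92, under the limit of 4. Of 18 tested regulators of mitotic transcription 6 were lower (29.1% of all tested genes were) and 4 higher (35.0%), with a median departure of 0.45. The dimerization partner Tfdp1 (-1.58 ± 0.16), the NF-Y subunit Nfyb (-0.99 ± 0.10) and E2f3 (-0.92 ± 0.10) were lower, and the DREAM component Lin37 (0.49 ± 0.070), Rb1 (0.85 ± 0.13) and its relative Rbl1 (1.20 ± 0.31) were higher. The other called regulators were Rbl2 (-0.46 ± 0.073), Nfyc (-0.72 ± 0.15) and E2f7 (-2.09 ± 0.38), lower, and Nfya (0.57 ± 0.16), higher. NF-Y subunits and Rb relatives thus went both ways. Mybl2, which encodes B-Myb, was not called (0.23 ± 0.27) and departed by 0.97 on NCSC 3, and the repressors E2f7 and E2f8 departed by 1.38 and 1.60. Mybl2, E2f7, E2f8, Rbl2, Nfyc and Nfya were named after their values were seen.

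The list of CDK inhibitors and arrest genes, which also holds p53 targets such as Mdm2 that are neither, departed both ways on NCSC 3. Of its 14 tested genes 3 were higher and 6 lower in NCSC, against 35.0% and 29.1% of all tested genes. The median departure of the list was -0.13 on NCSC 3 and 0.21 on MSC 2. Gadd45a (1.52 ± 0.12), Ccng2 (1.61 ± 0.16) and the inhibitor p27, Cdkn1b (0.38 ± 0.14), were higher. The p53 targets Ccng1 (-2.10 ± 0.10) and Mdm2 (-1.40 ± 0.15) and the arrest gene Gas1 (-4.69 ± 0.24) were lower. The departures on NCSC 3 ran from -1.23 for the antiproliferative gene Btg2 to 1.07 for the CDK4 and CDK6 inhibitor Cdkn2d. Among the others, Cdkn2b departed by -0.67, Ccng2 by -0.55, Cdkn2c by 0.65 and Gas1 by 0.78. Btg2 and the 3 Cdkn2 genes were named after their values were seen.

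**Figure D4:**
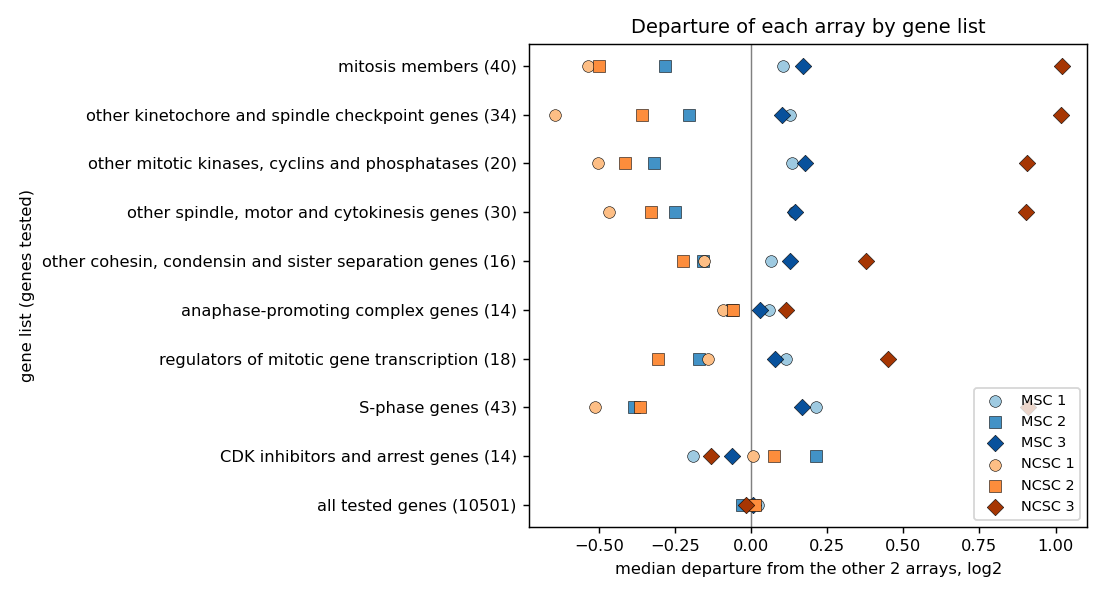
Median departure of each array from the other 2 arrays of its cell type (horizontal axis, log2) for the mitosis genes, 8 further gene lists and all tested genes, with the number tested in brackets. Blue symbols are MSC and orange to brown symbols NCSC arrays; NCSC 3 is at 1.02 for the members, 0.91 for S-phase genes and -0.13 for CDK inhibitors and arrest genes.

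Probe sets of the same gene shared the direction of NCSC 3 and differed in size. Of the 98 probe sets of the members 78 passed the filter, and NCSC 3 departed upward on all 78, by at least 0.5 on 73 of them. The median over probe sets was 1.02. The departures of single probe sets were 1.33, 0.97 and 0.093 for Foxm1, 0.24, 0.60, 0.16 and 0.016 for Bub3 and 1.39, 1.44 and 2.20 for Kif11, genes picked after their values were seen. Tested singly, 20 of the 78 were called lower and 1, of Bub3, higher in NCSC, against 27.2% and 33.0% of the 18640 kept probe sets. Several kept probe sets were available for 26 of the 40 members. Second probe sets of Ccna2 (-0.32), Cenpa (0.37) and Ncapg (0.040) differed in sign from the brightest one. Bub3 probe sets at -0.15 and -0.20 did so too, and none of these was called. For Foxm1 another probe set gave -0.82 and the last, dim one -0.075, neither called.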

How the data were processed

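RNA from 3 MSC and 3 NCSC samples was hybridised to Affymetrix arrays, 1 sample an array. The authors deposited GCRMA probe set intensities, which the values show to be linear, per the submitters' processing notes (version not given in the sources used here). GCRMA subtracts background by probe sequence and equalises arrays, which fixes overall level and compresses dim values to a floor of 2.12 on the log2 scale. No read depth exists for arrays, and 3 per group limit precision. Here the intensities were taken to log2, with no other normalization. Probe sets were named from the platform annotation with symbols updated through RefSeq (34945 with 1 gene, 932 with several, 9160 unnamed, 64 controls). Those above 4 on at least 3 of 6 arrays were kept, and the brightest by mean represented its gene. limma 3.58.1 in R 4.3.3 (lmFit, eBayes, two-sided, no covariate) tested NCSC against MSC, with Benjamini-Hochberg adjustment over 10501 genes; the code was tested on simulated data. Departures are an array minus the mean of its 2 replicates. Values on each array are printed for 15 core members, the 5 largest and 5 smallest differences and the 5 largest departures. Up to 3 called genes a direction are named from the other lists, and all called genes from the regulators of mitotic transcription. Alternatives were another filter or none, a floor at 4, the mean of a gene's probe sets, quantile or median scaling, array weights, trended and robust eBayes, a replicate block, and arrays left out singly or MSC 2 with NCSC 3. Probe sets tested singly and list counts without NCSC 3 were added after seeing the data. Promoters came from RefSeq tables of GRCm38.p6. The members and lists were chosen with earlier results of these data known.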

Additional observations from a re-analysis of the deposited data

How the results depend on the processing

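The count of members called depended on the arrays used. It was 9 with all 6 arrays (64.1% of all tested genes were called), 5 to 32 when 1 array was left out (5 without NCSC 2, 32 without NCSC 3, with 56.1% and 68.4% of all genes called), 37 without MSC 2 and NCSC 3 together (74.0%), 34 with array weights, which gave NCSC 3 a weight of 0.2 (77.2%), and 3 with no filter on low values (32.0%; Mad2l1, Kif20a and Smc2). Calls over all genes also rose under the settings that left out or downweighted NCSC 3. No member was called higher under any of these settings. With a replicate block it was 14, and 6257 genes in all were called. Deviations of arrays with the same number correlated at -0.098, 0.062 and 0.073, so the numbers were not taken to pair samples. The count of all genes called stayed within 1.5 times of 6731 under every setting, the members' median difference stayed negative (-0.94 to -0.33), and the departure of NCSC 3 stayed positive.

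Members near 0 changed sign without being called in either direction, except where a p is given. With array weights Ccna2, Cenpf, Nek2 and Ncaph were at -0.33, -0.076, -0.070 and -0.34, and without MSC 2 and NCSC 3 at -0.41 (adjusted p = 0.00483), -0.16, -0.16 and -0.41 (adjusted p = 0.0263). With the mean of their probe sets Ccna2 was at -0.11 and Cenpa at 0.13. When single arrays were left out, Ccna2 ran from -0.28 to 0.29, Ccnb2 from -0.49 to 0.026, Bub1 from -0.49 to 0.078, Bub1b from -0.21 to 0.095, Cenpa from -0.38 to 0.10, Cenpf from -0.087 to 0.54, Tpx2 from -0.38 to 0.099, Nek2 from -0.062 to 0.49, Prc1 from -0.38 to 0.13 and Ncaph from -0.26 to 0.26. Of these, Ccnb2, Bub1 and Prc1 were called lower without NCSC 3 (adjusted p = 0.00396, 0.0229 and 0.0393). The cause of these changes was not tested.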

Other observations

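Among all 10501 tested genes, 304 were higher on NCSC 3 by at least 1 log2 unit than the mean of the other 2 NCSC arrays. Of these, 22 (7.24%) were members described above, while 40 of the 10501 tested genes were members. The lists of members, other mitosis genes and S-phase genes together held 79 of them, and these lists had 40, 100 and 43 tested genes. The lists were chosen with earlier results of these data known. The remaining genes among the 304 were not sorted into groups here.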
